A study of Caenorhabditis elegans with 2 samples.

Results

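The genes considered here are the nuclear hormone receptor genes of Caenorhabditis elegans that carry an nhr name. They were taken as all nuclear protein-coding genes of the WBcel235 annotation named nhr- followed by a number, which gave 269 of 19973 genes. The genes were thus chosen by name, and the family was selected on its promoter peaks and regions in the lists described here. The data are chromatin immunoprecipitation followed by sequencing of EFL-1, a transcription factor of the E2F family, in 1 group with 2 biological replicates and no contrast between conditions. Both replicates came from whole young adult hermaphrodites of strain YL478, which stably express EFL-1 fused at its C terminus to GFP-FLAG, and the strain is described as an insertion targeting efl-1. Chromatin was sonicated and precipitated with an antibody described as directed against GFP. The sources used here name neither the regulatory sequence that drives the fusion nor the read depth, and give the age as unknown. The authors deposited lists of regions on build ce11: 30000 regions for each replicate, 30000 regions called jointly on both, and 2825 optimal peaks that passed a threshold on reproducibility, of which 2802 are nuclear. Each region has a signal value of unstated scale, and ranks below count nuclear regions from the strongest.

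Nuclear hormone receptors are transcription factors with a zinc finger DNA-binding domain and, in most cases, a ligand-binding domain that can respond to steroids, fatty acids or other small molecules. The worm family is far larger than those of insects and mammals. Most of its members descend from a relative of the vertebrate receptor HNF4, and a minority have counterparts in other phyla, such as NHR-23 and NHR-25, which act in moulting. The best known of the HNF4-like receptors, among them NHR-49, control fat metabolism and responses to diet and pathogens in the intestine. E2F factors are known for the control of cell cycle and, in the worm, germ line genes.

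A promoter peak was nearly absent from the family. Of the 269 nhr genes, 1 had the summit of an optimal peak within 500 bp of a start site (0.372%, exact 95% interval 0.00941 to 2.05), and among all 19973 protein-coding genes the share was 10.9%. That gene was nhr-47. The other 268 members had none, the fat metabolism regulator nhr-49 and the moulting regulator nhr-23 among them. The lists were used in choosing the family, so these shares are given without a test, and the intervals here and below cover counting error only. In chromatin of whole animals, binding in few cells and weak binding in many cannot be told apart.

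The sequences under the regions that the results turn on are shown first, on build WBcel235 (ce11), 5′ to 3′ on the strand of the nhr gene and without annotated untranslated exons. Capitals mark the E2F core, taken as TTCCCGC or the like-built TTCGCGC, and also as TTGCCGC or the like-built TTGGCGC. In the longer stretches they also mark the hexamers TTCGAA and the related TTTGAA, forms of the element bound by the DREAM protein LIN-54. Both strands were searched, so a run of capitals can be the reverse complement of these letters. The first is the part of the nhr-47 peak upstream of its start site (V:5505201-5505252, plus strand).
nhr-47: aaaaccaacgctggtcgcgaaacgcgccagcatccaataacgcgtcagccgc
Next is the optimal peak upstream of nhr-66 (IV:8237096-8237385, minus strand), which lies beyond 500 bp of a start site.
nhr-66: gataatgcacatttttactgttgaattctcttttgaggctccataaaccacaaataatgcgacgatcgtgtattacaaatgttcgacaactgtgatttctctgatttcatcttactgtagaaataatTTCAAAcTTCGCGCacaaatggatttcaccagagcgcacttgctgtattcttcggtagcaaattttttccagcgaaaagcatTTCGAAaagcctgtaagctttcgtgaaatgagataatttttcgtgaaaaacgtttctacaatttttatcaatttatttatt
The nhr-193 region (V:16341674-16341963, plus strand) is shown because its summit lies in a tRNA gene.
nhr-193: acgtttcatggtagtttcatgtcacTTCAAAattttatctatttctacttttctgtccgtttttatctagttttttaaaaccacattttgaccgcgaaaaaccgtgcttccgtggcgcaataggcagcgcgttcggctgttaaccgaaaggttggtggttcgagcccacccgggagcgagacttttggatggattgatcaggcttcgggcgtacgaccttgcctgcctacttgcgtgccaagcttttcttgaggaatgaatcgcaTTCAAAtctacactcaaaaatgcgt
The last 3 are windows of 37 bases, with the core alone in capitals, around the E2F core in the promoter regions of nhr-13 (V:2192258-2192294), nhr-41 (IV:1394322-1394358) and nhr-56 (V:2219938-2219974), all on the plus strand.
nhr-13: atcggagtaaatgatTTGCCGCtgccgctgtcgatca
nhr-41: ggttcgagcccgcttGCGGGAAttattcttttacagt
nhr-56: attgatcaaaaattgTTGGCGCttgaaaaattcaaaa

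At nhr-47 (WBGene00003637, V, 5505253 to 5509956, plus strand) the optimal peak spanned 5505201 to 5505321, with its summit on the annotated start site, in the 5′ untranslated exon. Its signal in the joint call was 115 and its rank 909, against a median of 78.4 and a lowest value of 40.1 over the nuclear optimal peaks. In replicate 1 the overlapping region ranked 1599 at a signal of 39.7, and its summit was 6 bp before the start. In replicate 2 the rank was 614, the signal 71.7 and the summit 22 bp upstream. The gene was thus found in both replicates, with a value 1.81 times higher in replicate 2, on lists that were called separately. The region called in replicate 1 was 290 bp wide and that in replicate 2 was 78 bp wide. A noncoding RNA gene on the other strand, C24G6.10 (V, 5505124 to 5505261), overlaps the peak. The divergent neighbour dnj-19, which encodes a DnaJ-type cochaperone, starts 396 bp away and counts as a gene with the same peak. The upstream stretch of the peak has a GC content of 59.6%, and no E2F core and no TTCGAA or TTTGAA lay within 100 bp of the summit. An E2F core was within 100 bp of the summit in 29.7% of the 2802 optimal peaks, and TTCGAA or TTTGAA in 58.7%.

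**Figure D1:**
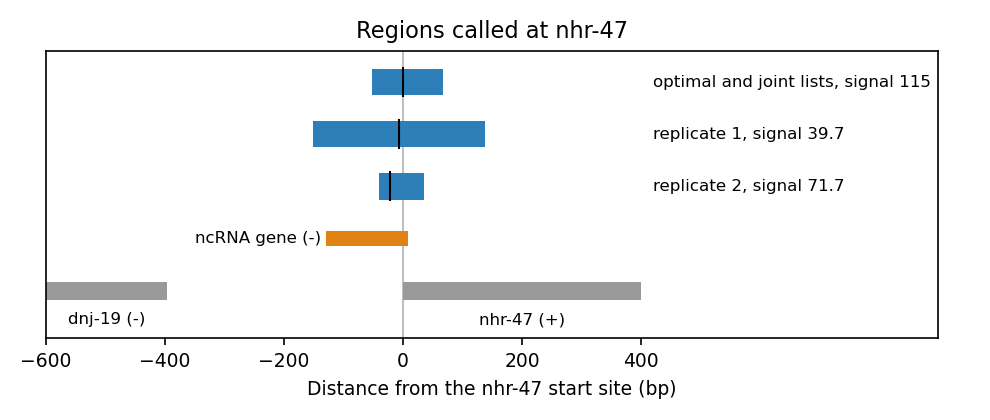
Regions called at nhr-47, by distance from its start site in bp, in the optimal and joint lists and in each replicate (blue, black tick at the summit), with the neighbouring gene dnj-19, nhr-47 (grey) and a noncoding RNA gene (orange), strands in parentheses. Gene bars are cut at the edges of the window. The summits lie 0, 6 and 22 bp from the start site.

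Optimal peaks also lay beyond the 500 bp window at other members. The closest was at nhr-142, with the summit 507 bp upstream (V, 5790915 to 5791204, signal 100.8, rank 1058) and replicate values of 51.3 and 48.6. That summit was nearer to the neighbouring gene F44E7.9, at 170 bp. In the list of replicate 1 the nhr-142 summit was 492 bp upstream and so fell inside the window, at rank 1208. At nhr-66, which acts with nhr-49 on lipid catabolism genes, the peak 639 bp upstream ranked 2397. Its signal was 47.1, beside 31.4 in the first replicate and 20.04 in the second. A weaker joint-list region of 12.6, in replicate 2 alone at 11.0, lay 70 bp upstream of another nhr-66 start site. Replicate 1 held a different nhr-66 promoter region, at 12.2. The optimal peak, but not the weaker joint-list region, has the E2F core within 100 bp of its summit, as TTCGCGC beside a TTCAAA in the stretch shown above. At nhr-15 the peak 852 bp upstream (signal 120.4) was 304 bp from a start site of phf-10. The peak 1786 bp upstream of nhr-249 had a signal of 54.9, with 28.02 and 35.3 in the replicates.

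Within gene bodies, 4 members held the summit of an optimal peak (1.49% of members, against 4% of all protein-coding genes). Besides nhr-47 these were nhr-61 (signal 74.3, in a coding exon, 1004 bp downstream of its own start site and 830 bp from that of W01D2.1), nhr-64 (61.2, in an intron, 1238 bp downstream) and nhr-17 (46.5). The nhr-61 peak had 27.9 in replicate 1 and 48.4 in replicate 2, and the nhr-64 peak had 28.7 and 32.4. Both were thus called in each replicate. NHR-64 is one of the worm receptors most like vertebrate HNF4. Members lay far from optimal peaks as a rule. The median distance from a start site to the nearest optimal summit was 41.6 kb over the 269 members (quartiles 19.6 and 88.8 kb), and 15.7 kb over the other genes (3.88 and 45.3 kb). A summit within 5 kb was found for 17 members (6.32%), against 28.3% of other genes.

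The joint list, which reaches into background, gave a wider view of the same promoters. A region of any rank within 500 bp of a start site was found for 49 of the 269 members (18.2%, interval 13.8 to 23.4), where the share of all genes was 35.5%. The remaining 220 members had no joint-list region near a start site. The gap was widest among the strong regions. By the rank of a gene's strongest promoter region, 1 member fell among the first 2802, 12 (4.46%) fell between ranks 2803 and 10000, 21 (7.81%) between 10001 and 20000 and 15 (5.58%) from 20001 on. The shares of all genes in these ranges were 10.9%, 11.1%, 7.84% and 5.58%. Genes with a stronger region drop out of the later ranges, and many more of all genes had dropped out. Counted among genes still without a region, the members' shares in the last 3 ranges were 4.48%, 8.2% and 6.38%, beside 12.5%, 10.1% and 7.96% for all genes. The homeobox ceh genes and the cuticle collagen col genes, also large families, had an optimal promoter peak in 4 of 63 (6.35%, interval 1.76 to 15.5) and 4 of 156 cases (2.56%, interval 0.703 to 6.43). Their intervals overlap that of the nhr genes. Joint-list regions were found for 12 of the ceh genes (19%, interval 10.2 to 30.9), a share close to the 18.2% of the nhr genes, and for 45 of the col genes (28.8%, interval 21.9 to 36.6). Differences between the families were not tested.

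**Figure D2:**
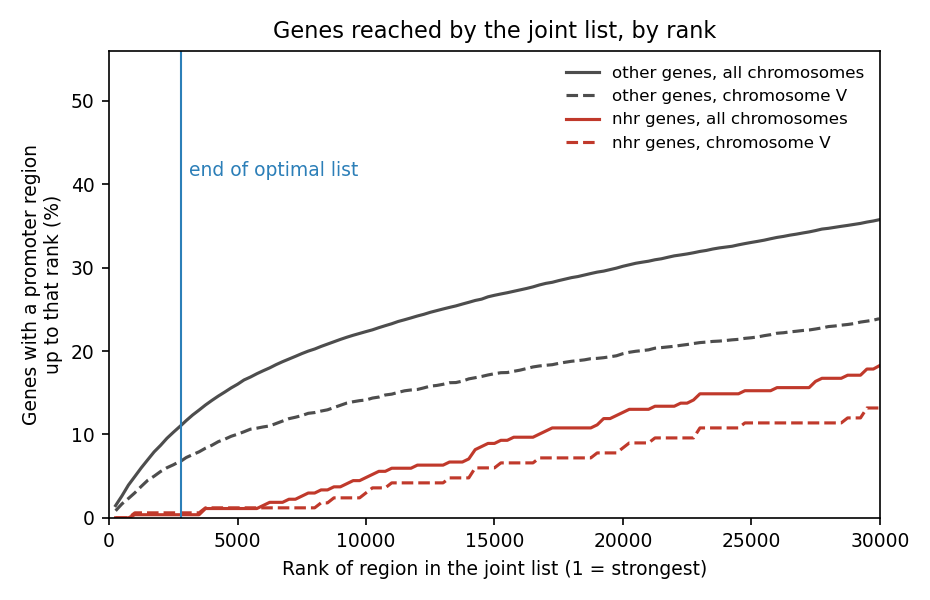
Share of genes (vertical axis, %) with a joint-list region within 500 bp of a start site, up to each rank in the list (horizontal axis), for nhr genes (red) and other genes (grey), on all chromosomes (solid) and on chromosome V (dashed). The nhr lines end at 18.2% and 13.2%, and those of other genes at 35.7% and 23.9%.

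The members were unevenly placed on the chromosomes. Chromosome V carried 167 members (62.1%), against 25% of all protein-coding genes, and with V cut into 3 equal lengths, 126 of the 167 lay in the outer ones. Optimal peaks were less dense on V as a whole, at 20.2 per Mb, than on chromosomes I to IV, at 29 to 45.7 per Mb, and least dense on X at 4.74 per Mb. On V, 1 of the 167 members had an optimal promoter peak (0.599%, interval 0.0152 to 3.29), against 329 of 4827 other genes (6.82%, interval 6.12 to 7.56). Giving each member the share of the other genes on its chromosome would place an optimal promoter peak at 23.2 members (8.62%), where 1 was found, and a joint-list region at 77.6 (28.8%), where 49 were found. In the middle one of these lengths, 0 of 41 members had an optimal promoter peak (interval 0 to 8.6), against 8.26% of the 1756 other genes there. A joint-list region was found for 1 of the 41, nhr-101 (2.44%), against 24.8% of these other genes. The nhr-101 summit lay in an intron of the mismatch repair gene pms-2, whose start site was nearer. In the outer lengths the shares with a joint-list region were 16.7% of members and 23.3% of other genes. With an optimal promoter peak they were 0.794% and 5.99%. Members also cluster, and 137 of them (50.9%) stood next to another member in the order of protein-coding genes, so they are not independent of each other. The longest run held 9 members.

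On X the order was the other way. There 7 of 23 members had a joint-list region (30.4%, interval 13.2 to 52.9), against 305 of 2708 other genes (11.3%, interval 10.1 to 12.5). These were nhr-32 (signal 18.9), nhr-35 (17.0), nhr-3 (16.7), nhr-91 (12.8), nhr-40 (12.1), nhr-1 (11.4) and nhr-255 (8.12). All 7 values lie well under the lowest optimal signal of 40.1, and 0 of the 23 had an optimal peak, against 1.18% of other X genes. Among them roles are known for nhr-40, in embryonic muscle development, and for nhr-91, the counterpart of vertebrate GCNF. This chromosome was picked out after its values were seen.

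**Figure D3:**
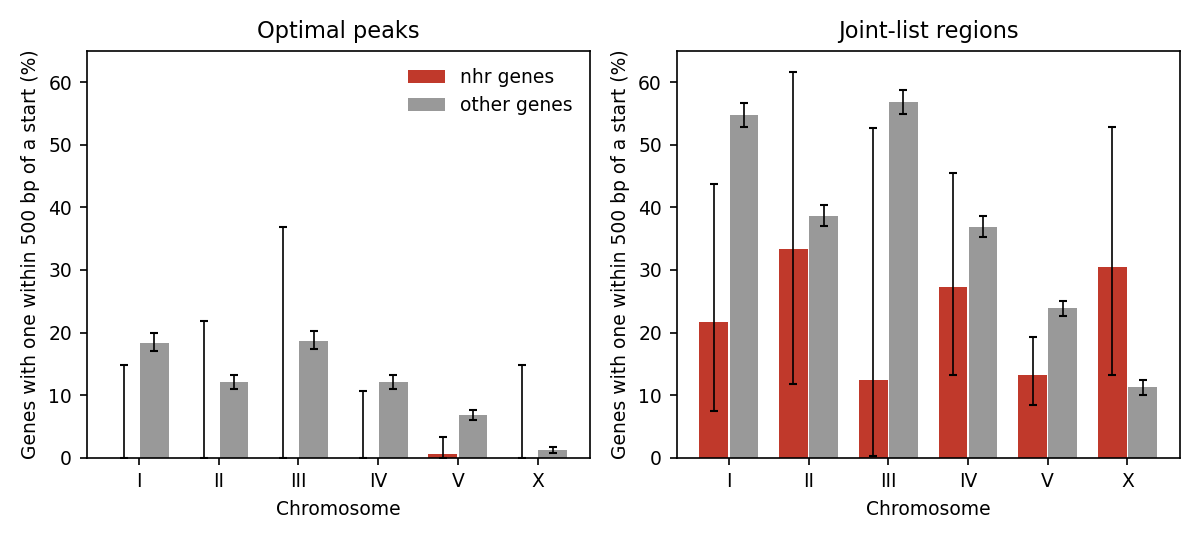
Share of genes (vertical axis, %) with an optimal peak (left) or a joint-list region (right) within 500 bp of a start site, per chromosome, for nhr genes (red) and other genes (grey). Bars are shares and lines are exact 95% intervals. On the left nhr genes are at 0 on every chromosome except V (0.599%). On the right they lie below other genes on all chromosomes except X.

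Among the members below the optimal threshold, the nearest to it was nhr-49 (WBGene00003639, I, 9869651 to 9874680). Its region, 354 bp upstream, ranked 3599 at 32.3, and the replicates gave 17.6 and 18.9. The replicate values differed by a factor of 1.07, and the ranks were 4411 and 3063, below the first 2802 in both. The gene has 6 annotated start sites, and 4 separate joint-list regions lay within 500 bp of them. Next was nhr-193 with a signal of 31.4 and rank 3742, 489 bp upstream. The summit of that region lay inside the tRNA gene WBGene00014408 (V, 16341779 to 16341851), and the overlapping regions had 26.7 in replicate 1 and 11.5 in replicate 2. In replicate 1 the summit of that region was outside the 500 bp window, and the strongest one inside had a signal of 6.03. The remaining members of the next 5 were nhr-88 (22.6), nhr-61 (21.7) and nhr-41 (20.1), with summits in introns. For nhr-88 the replicates gave 14.7 and 4.81, the largest ratio among members found in both lists, 3.05. For nhr-61 they gave 6.75 and 14.6.

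The 49 promoter regions lay on both sides of the start site. The summit was upstream for 27, downstream for 21 and on the start site for nhr-47, at a median distance of 270 bp, and within 200 bp for 22. It was intergenic for 17, in an intron for 18, in a coding exon for 10 and in a 5′ untranslated exon for 4. This placement was not compared with that of the regions of all genes. At the edge of the window, nhr-201 was inside at 483 bp and nhr-239 outside at 511 bp, with signals of 11.6 and 15.1. In 47 cases no start site of another protein-coding gene lay within 500 bp of the summit. The 2 regions shared in this sense were those of nhr-47 with dnj-19 and of nhr-101 with pms-2. Overlap with the body of another gene or with a tRNA gene did not enter this count. Members with a region had a median signal of 12.4, against 15.01 over all genes whose strongest promoter region was below the optimal threshold. A tRNA gene overlapped 2 of the 49 regions (4.08%, interval 0.498 to 14), those of nhr-193 and nhr-255, and 1.15% of all joint-list regions. The E2F core was within 100 bp of the summit in 4 of the 49 (8.16%, interval 2.27 to 19.6), those of nhr-2, nhr-13, nhr-41 and nhr-56, against 9.76% of all joint-list regions below the optimal threshold.

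**Figure D4:**
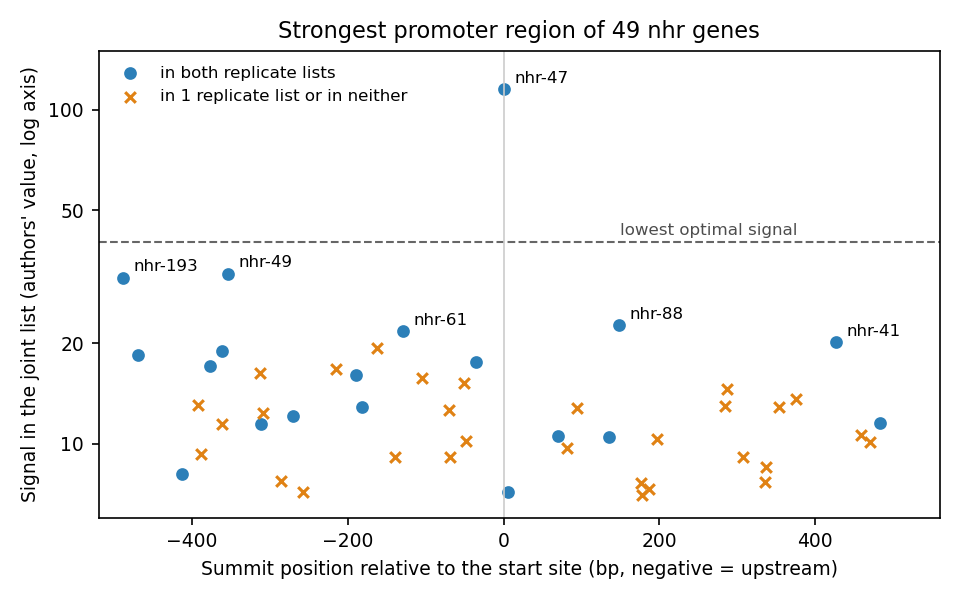
Signal of the strongest joint-list region of each of 49 nhr genes (vertical log axis, authors' value) against the position of its summit relative to the start site (horizontal axis, bp, negative upstream). Blue circles are regions overlapped in both replicate lists and orange crosses those in 1 or neither, and the dashed line is the lowest nuclear optimal signal, 40.1. Only nhr-47, at 115, is above it.

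Each of these regions was looked up by overlap in the replicate lists, and the same split was not made for the regions of all genes. Of the 49, 19 were overlapped by a region in both replicate lists, 14 in replicate 1 alone, 11 in replicate 2 alone and 5 in neither. Of the 19, 14 had values no more than 2-fold apart, and the median ratio was 1.41. The 5 beyond it were nhr-61, nhr-88, nhr-101, nhr-193 and nhr-35, of which nhr-61 and nhr-101 were higher in replicate 2. At nhr-255 the overlapping regions reached 15.04 and 21.2, above the joint signal of 8.12, and the summits of these replicate regions were outside the window. The joint region there overlaps the tRNA gene WBGene00014626, with its summit 64 bp from it. Taken from each replicate's own list, 59 members (21.9%) had a promoter region in replicate 1, where the share of all genes was 36.4%, and 56 (20.8%) in replicate 2, against 36.9%. The 2 sets had 26 members in common, 44.1% of the first and 46.4% of the second. For all genes the common part was 76.5% and 75.3%. All genes with a joint-list promoter region had a median signal of 21.5, against 12.4 for such members, and genes of like signal were not compared. Among the 2802 strongest regions of a replicate, replicate 1 had 2 members, nhr-47 and nhr-142 (0.743%, against 10.7% of all genes), and replicate 2 had nhr-47 alone (0.372%, against 10.5%). In all, 177 members (65.8%) had no promoter region in any of the joint and replicate lists, and so did 53.1% of all genes.

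**Figure D5:**
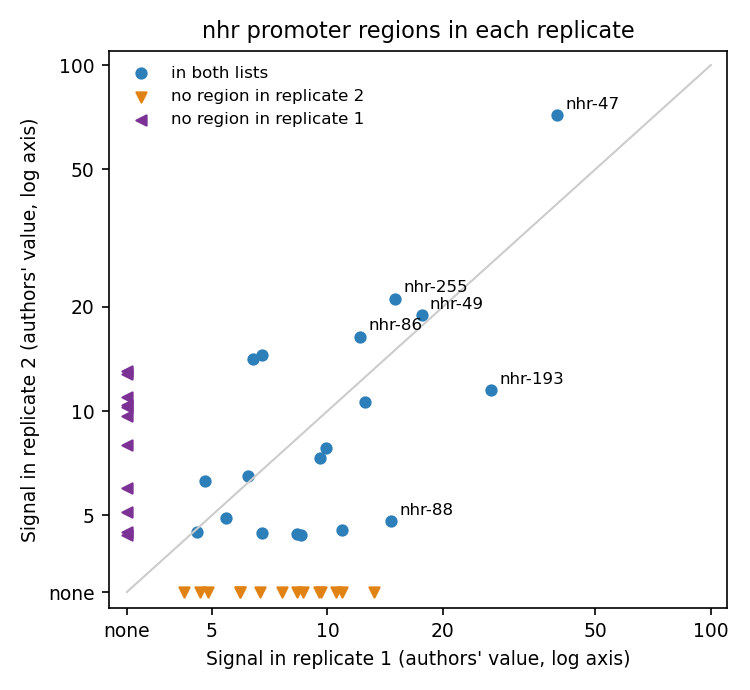
Signal of the region overlapping each nhr promoter region in replicate 1 (horizontal) and replicate 2 (vertical), both log axes of the authors' values. The tick marked none is off the scale and holds members without an overlapping region in that replicate. The grey line marks equal values, and 5 members without an overlapping region in either list are not drawn. The highest point is nhr-47 (39.7 and 71.7), and most of the others are below 20.

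By role, the receptors with counterparts in other phyla had 0 optimal promoter peaks in 12 genes and joint-list regions in 6. For this list and those below, the shares of all genes were 10.9% and 35.5%, and those of the 269 members 0.372% and 18.2%. The lists are short, and their differences from these shares were not tested. The strongest were those of nhr-41, a relative of the fly receptor DHR78 (20.1), and of nhr-85, related to fly E75 and vertebrate Rev-erb (14.6). The nhr-41 region was seen in both replicates, at 9.90 and 7.80, and the nhr-85 region in replicate 1 alone, at 5.90. The nhr-91 region (12.8) and that of nhr-8, a relative of daf-12 in sterol and toxin responses (10.3), were also in replicate 1 alone, at 8.65 and 9.61. The replicates' own lists held other promoter regions of nhr-85, at 6.62 in replicate 1 and 7.87 in replicate 2. For nhr-91, replicate 2 held another one, at 4.72. The joint list had no region near a start site of nhr-6, the NR4A counterpart that shapes the spermatheca, or of nhr-25, the NR5A counterpart. The moulting regulator nhr-23 had a region of 9.15 that was in replicate 2 alone, at 12.8, while replicate 1 held another nhr-23 promoter region, at 7.17.

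The receptors of metabolism, diet and stress had 0 optimal promoter peaks in 14 genes and joint-list regions in 7, against 10.9% and 35.5% of all genes. After nhr-49 came nhr-86, which encodes an HNF4-like receptor that senses a bacterial metabolite and turns on pathogen defence. Its region 35 bp upstream had 17.6 in the joint list, 12.2 in replicate 1 and 16.4 in replicate 2. The region of nhr-114, which protects germ cells on poor diets, had its summit 313 bp upstream, in an intron of another gene, Y45G5AM.9. This region had 16.3 and was in replicate 2 alone, at 10.4. That of nhr-13, a partner of nhr-49 in fatty acid desaturation, had 12.9, with 6.74 and 4.44 in the replicates. The joint list had none near a start site of nhr-80, which controls fatty acid desaturation, or of nhr-62, which acts in the response to dietary restriction, though replicate 1 alone listed a region of 5.60 at nhr-80, 343 bp downstream. Of the 3 receptors of early development, nhr-2, expressed in the early embryo, had a region of 19.3 that was in replicate 2 alone, at 9.65. Replicate 1 held another nhr-2 promoter region, at 8.93. For nhr-40 the signal was 12.1, with 8.54 and 4.39 in the replicates. At nhr-60 the joint list had none.

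Receptors outside the name rule and genes that work with them were looked at alongside. Of 5 receptor genes without an nhr name, 0 had an optimal promoter peak and 1 a joint-list region, against 10.9% and 35.5% of all genes. The steroid receptor gene daf-12 had a joint-list region of 11.7 that neither replicate list held, and the joint list had none at unc-55, fax-1, odr-7 or sex-1. Of 10 genes of cofactors and of ligand synthesis 1 had an optimal promoter peak and 6 a joint-list region, beside the same shares of all genes. The gene with the optimal peak was smo-1, which encodes SUMO, a small protein attached to NHR-25 and many other proteins. Its signal was 655 at rank 101, 474 bp upstream of the start site, with 314 in replicate 1 and 338.5 in replicate 2. The Mediator subunit gene mdt-15, a coactivator gene of NHR-49, had a joint-list region of 23.04, shared with R12B2.13, with 13.1 and 11.0 in the replicates. The regions of din-1, a corepressor gene of DAF-12, and cbp-1, the p300 and CBP counterpart, had 13.5 and 12.3. Near a start site of daf-9 or daf-36, which encode enzymes of DAF-12 ligand synthesis, the joint list had no region.

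The letters of the E2F core were also counted at the start sites of all members, with or without a peak. In a window from 250 bp before to 50 bp after the outermost start site, 17 of 269 members had the core (6.32%, interval 3.72 to 9.93), against 9.19% of all genes. On chromosome V the shares were 5.99% of 167 members and 8.23% of all genes. TTCGAA or TTTGAA was in 70.3% of the members' windows and in 68.9% of all. Of the 17 members with the core, 0 had an optimal promoter peak and 7 had a joint-list region (41.2%, against 18.2% of all 269 members). These were nhr-2, nhr-3, nhr-13, nhr-41, nhr-64, nhr-157 and nhr-184. Over all 1836 genes with the core in this window, 28.4% had an optimal promoter peak and 51.7% a joint-list region, against 10.9% and 35.5% of all genes. A match to these letters is not a site of binding.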

How the data were processed

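Peaks were analysed from 1 library for each of 2 biological replicates, per the labels. Per the submitters' file notes, the authors made each list from the alignments of 1 or both replicates and a further file, and thresholded the optimal list on reproducibility (IDR). The control that the labels name as possible was not analysed here. Aligner, peak caller and threshold value: not given in the sources used here. Each region carries a score, its signal value, deposited by the authors, and without read counts depth is unknown. Only ce11 lists were used, with the WBcel235 sequence and Ensembl release 115 annotation, after checking that all regions fit within its chromosomes. Mitochondrial regions (23 of the 2825 optimal peaks) were left out.

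Start sites are the 5′ ends of protein-coding transcripts (29314 sites). Promoter peaks are those whose summit (region start plus deposited offset) was within 500 bp of one. The strongest such peak gives a gene's values. A replicate's value is that of its strongest region overlapping by at least 1 bp. Motif windows reach 100 bp on either side of a summit. Shares have exact binomial 95% intervals, from scipy 1.17.1 with pandas 2.3.3. No test was run: there is 1 group, and the family was chosen with earlier results of these data known, as were the gene lists. Peak assignment was tested on simulated summits. The genes named are all members with an optimal promoter peak, the next 5 members by joint-list signal, and from each list the 4 strongest and the first 2 without a region, and further genes were chosen after seeing values. The alternatives were other windows, thresholds, start sites, motif forms, overlap rules and single replicates. Of the optimal peaks between 500 bp and 2 kb from a member, 1, stronger than that of nhr-47, is not reported here.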

Additional observations from a re-analysis of the deposited data

How the results depend on the processing

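The count of members with an optimal promoter peak was 1, that of nhr-47, against 10.9% of all genes. It was also 1 with a window of 200 bp (5.92% of all genes) and the stronger 1401 peaks (6.49%). The same held with nearest (8.75%) or outermost start sites (10.5%) and autosomes alone (10.8%). With a window of 1000 bp the count was 5 (nhr-15, nhr-47, nhr-66, nhr-86 and nhr-142), against 13.8% of all genes, with 4 of the 5 summits upstream of the start site where none was at 500 bp. No optimal list of a single replicate was used, so the 2802 strongest regions of 1 replicate's own list stood in for it. Without replicate 1 the count was then 1 (10.5% of all genes). Without replicate 2 it was 2 (10.7%), the second being nhr-142. With the strongest 5604 regions of the joint list, an alternative chosen after seeing the data, it was 3 (nhr-47, nhr-49 and nhr-193), against 16.8% of all genes. The count with a joint-list region was 49, against 35.5% of all genes. It was 26 with a window of 200 bp (22.4% of all genes) and 71 at 1000 bp (42.5%). For the strongest 10000 regions it was 13 (22.1%), and with nearest start sites 48 (33%). In the list of replicate 2 alone it was 56 (36.9%), and in that of replicate 1 alone it was 59 (36.4%). The E2F core was absent near the nhr-47 summit in each window tried. The looser form without its first T was present there (1 of 1), but its share over all optimal peaks was not worked out. Regions among the strongest of both replicates numbered 1, and 0 with 50% reciprocal overlap. With the strongest 1401 regions of each replicate there were 0, and with the strongest 5604 there were 2 (nhr-47 and nhr-49). The shares of all genes were not worked out for these counts. The cause of these shifts was not tested beyond the construction of each alternative.

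Read depth is unknown from the lists, and with 1 member called its share cannot be resolved more finely than its interval. Regions below the optimal threshold include background. Members on chromosome V lie where peaks are sparse. No paired analysis was possible because there is 1 group.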
